A study of Mus musculus with 17 samples.

Results

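The genes described here are 32 genes of the unfolded protein response and of protein folding in the endoplasmic reticulum (ER), measured in fat of the mouse epididymal depot, a white adipose tissue that lies along the epididymis. They were chosen by name. A gene counted as measured where at least 1 of its probes was well above background in the sample dye on 8 or more of the 17 arrays, and its brightest probe stood for it, except that all probes of Pdia6 were read. All 32 had such a probe, among 18134 genes tested, and 53 of the 55 probes that name one of them met the condition. By the sensor each is mainly known for, 14 were placed with ATF6, 10 with IRE1 and 8 with PERK. The array gives Manf its older name Armet and Ppp1r15a its older name Myd116.

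The mice were adult C57BL/6J males kept for 13 weeks on a purified high-fat diet in which fat gave 30% of the energy, and this was so in both groups. The carbohydrate had a high glycemic index (HGI, 9 mice) or a low one (LGI, 8 mice), so the comparison asks which transcripts differ with the glycemic index within a high-fat diet. From 500 ng of RNA, each mouse gave a Cy5 target for 1 array and a Cy3 target for a common pool, which was the other channel on every array. Each value below is the log2 ratio of a mouse to that pool, compared for 1 gene between mice and not between genes. The labels number replicates and say no more of the animals. Each p-value rests on the spread among these arrays alone, in which differences between mice and technical ones cannot be told apart.

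The ER folds proteins that a cell secretes or sends to its membranes. When unfolded proteins gather there, the sensors ATF6, IRE1 and PERK start the unfolded protein response: ATF6 is cut to a transcription factor for chaperones, IRE1 splices the Xbp1 transcript so that it encodes an active factor for folding and degradation genes, and PERK slows translation while the factor ATF4 is made and turns on genes of amino acid supply and, through Ddit3 (CHOP), of cell death. In fat this response is known for its links to obesity, to adipocyte differentiation and to the secretory work of adipocytes and immune cells.

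HGI 9 and HGI 10 stand apart from the other 15 arrays and are given separately. The correlation between their profiles was 0.81, and that of either with any of the 15 was -0.05 to 0.14, where the 15 gave 0.37 to 0.83 among themselves. A list of 8 seminal vesicle genes, of which 7 were tested, averaged 1.59 in HGI 9 and 1.58 in HGI 10, against -4.30 to -3.93 in the other 15 mice, and 6 smooth muscle genes averaged 1.18 and 1.07, against -1.18 to -0.46. All 8 adipocyte markers were above background on all 17 arrays. The list averaged -0.30 in HGI 9 and -0.22 in HGI 10, against -0.21 to -0.02 in the 7 other HGI mice and -0.27 to 0.15 in LGI mice. In whole tissue, fewer cells of a type and less RNA per cell cannot be told apart. On each array 54.2% to 66.7% of gene spots were well above background. Precision is limited by how many arrays there are.

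The regulatory letters of the response lie close to the start of its target genes. The letters searched were the ER stress response element CCAAT, any 9 bases and CCACG (ERSE), bound by ATF6 together with NF-Y, its variant ATTGG, any 1 base and CCACG (ERSE-II), the XBP1 and ATF6 element TGACGTGG (UPRE), and the C/EBP-ATF response element TGATGNAA (CARE), bound by ATF4 dimers. A window of 250 bases before and 50 after the start was at hand for 28 of the 32 genes, from RefSeq (build GRCm38.p6), and both strands were read. An ERSE was found in 9 of the 28 windows, against 0.119% of the 32851 windows of the table: Hspa5, Hsp90b1, Calr, Canx, Pdia6 and Creld2 of the ATF6 group and Dnajc3, Syvn1 and Derl3 of the IRE1 group. ERSE-II was found in Herpud1 and Dnajb11 (0.0365% of all windows), the UPRE in 0 of the 28 (0.676%), and the CARE in Atf3, Trib3, Asns, Chac1 and Herpud1 (3.97%). No PERK gene held an ERSE and 4 of 8 held a CARE. The genes were chosen by name as genes of the response, so these shares are a description and no test of the letters. A match is a run of letters, not a bound site.

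The 250 bases before the start are shown for 4 ATF6 genes and 2 PERK genes, 5′ to 3′ on the strand of the gene. These genes were picked from those with a match. The windows of Sdf2l1, Xbp1 and Atf4 held no match to any of the letters searched. Capitals mark the ERSE in Hspa5 (chr2:34771840-34772089, plus strand), Creld2 (chr15:88819396-88819645, plus strand) and Hsp90b1 (chr10:86705445-86705694, minus strand, 2 copies), the ERSE-II in Herpud1 (chr8:94386179-94386428, plus strand) and the CARE in Asns (chr6:7693210-7693459, minus strand) and Chac1 (chr2:119350992-119351241, plus strand). None of the marked matches overlaps a match to another of these motifs.
Hspa5: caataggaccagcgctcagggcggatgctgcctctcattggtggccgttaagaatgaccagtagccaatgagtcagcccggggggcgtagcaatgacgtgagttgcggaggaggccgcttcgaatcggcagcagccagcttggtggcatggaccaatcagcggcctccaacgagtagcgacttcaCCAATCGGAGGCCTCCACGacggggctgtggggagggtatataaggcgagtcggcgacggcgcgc
Creld2: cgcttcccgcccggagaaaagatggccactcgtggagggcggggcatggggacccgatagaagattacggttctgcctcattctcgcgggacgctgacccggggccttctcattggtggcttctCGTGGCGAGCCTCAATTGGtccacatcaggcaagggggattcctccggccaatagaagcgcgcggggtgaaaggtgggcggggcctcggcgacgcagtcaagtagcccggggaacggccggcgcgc
Hsp90b1: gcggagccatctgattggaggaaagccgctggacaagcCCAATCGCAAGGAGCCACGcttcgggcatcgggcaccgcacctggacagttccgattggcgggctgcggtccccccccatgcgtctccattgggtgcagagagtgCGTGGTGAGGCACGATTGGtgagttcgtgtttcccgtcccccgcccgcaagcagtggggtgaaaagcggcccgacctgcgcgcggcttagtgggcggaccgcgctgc
Herpud1: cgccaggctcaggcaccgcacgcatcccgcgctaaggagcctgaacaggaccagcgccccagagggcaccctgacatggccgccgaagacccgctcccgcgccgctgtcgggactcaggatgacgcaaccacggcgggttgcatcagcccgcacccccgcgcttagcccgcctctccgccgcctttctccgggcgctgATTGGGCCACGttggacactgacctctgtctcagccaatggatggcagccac
Asns: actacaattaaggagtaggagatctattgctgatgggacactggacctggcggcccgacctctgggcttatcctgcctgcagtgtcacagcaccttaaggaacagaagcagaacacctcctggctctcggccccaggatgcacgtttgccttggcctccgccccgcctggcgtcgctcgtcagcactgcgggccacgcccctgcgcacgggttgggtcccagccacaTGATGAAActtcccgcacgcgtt
Chac1: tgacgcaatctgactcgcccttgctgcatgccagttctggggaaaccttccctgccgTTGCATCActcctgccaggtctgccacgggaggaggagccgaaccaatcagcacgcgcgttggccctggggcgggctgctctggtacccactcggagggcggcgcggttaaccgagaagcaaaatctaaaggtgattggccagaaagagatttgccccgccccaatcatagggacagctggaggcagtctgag

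Between 7 HGI mice and 8 LGI mice, without HGI 9 and HGI 10, no gene of the response passed the test, and the count of positive differences varied by branch. Of the 14 ATF6 genes, 13 had a positive difference (HGI minus LGI), with a median of 0.073 on the log2 scale. Of the 10 IRE1 genes 3 had one, with a median of -0.029, and of the 8 PERK genes 3, with a median of -0.033. Over all 32 genes 19 differences were positive with a median of 0.031, beside 50.1% and a median of 0.0002 over all genes tested. With the arrays scaled by their medians in place of loess, 27 of the 32 differences were positive beside 62.7% of all genes, and the medians were 0.21 for the ATF6, 0.076 for the IRE1 and 0.027 for the PERK genes, beside 0.035 for all genes, so the sign of the last 2 branches depended on the scaling.

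In limma's test, with the Benjamini-Hochberg adjustment over the 18134 genes, 0 of the 32 and 0 of all genes (0%) passed an adjusted p of 0.05, and the smallest adjusted p of any gene was 0.126. An unadjusted p under 0.05 was reached by 4 of the 32, beside 7.79% of all genes: there were 2 higher genes of the 32 (Sdf2l1 and Hspa5), beside 5.04% of all genes, and 2 lower ones (Xbp1 and Atf4), beside 2.75% of all genes. The standard error of a difference had a median of 0.081 over the 32 genes. In simulated data of this size the test recovered 86 of 100 genes set 0.5 apart and 98 of 100 set 1 apart, with 11 false calls. Both sizes were above the largest difference of the 32, which was 0.35 for Sdf2l1. Recovery of differences as small as those of the 32 was not tested.

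**Figure D1:**
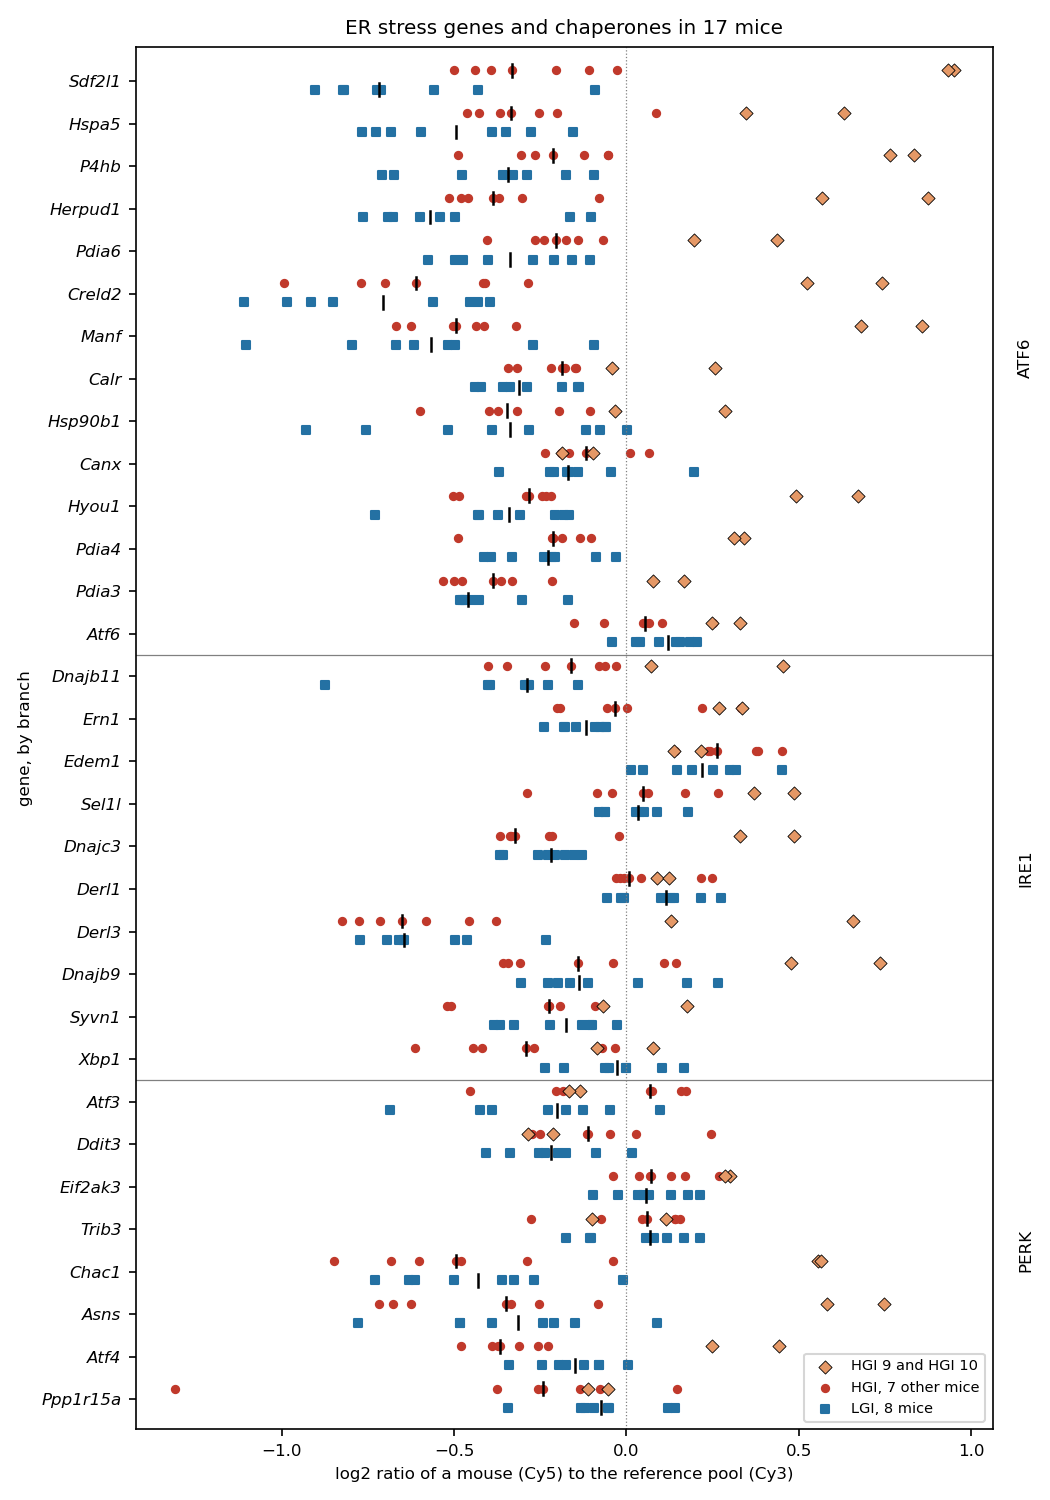
Log2 ratio to the reference pool (horizontal axis) of the 32 genes (vertical axis, by branch) in each mouse: HGI 9 and HGI 10 (diamonds), the 7 other HGI mice (circles) and the 8 LGI mice (squares), with a black line at the median of the 7 and of the 8. The diamonds lie right of every other point for 20 genes (beside 11.1% of all genes), among them Sdf2l1, Manf and Chac1. Circles and squares overlap for every gene shown, and only 0.0717% of all genes have diets that do not overlap.

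ATF6 itself had no positive difference at its transcript. Atf6 ran from -0.15 through a median of 0.054 to 0.25 in the 7 HGI mice and from -0.041 through 0.12 to 0.20 in LGI mice, a difference of -0.058 ± 0.065 (SE). Of the 7 HGI mice 2 lay below every LGI mouse and 1 above every one. The cut that activates ATF6 acts on the protein and is not measured by an array.

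Sdf2l1, a cofactor of the chaperone Hspa5 and of its partner Dnajb11, had the largest difference of the 32. Its log2 ratio (probe A_51_P280446) was -0.50, -0.44, -0.39, -0.33, -0.21, -0.11 and -0.03 in the 7 HGI mice, against -0.90, -0.82, -0.82, -0.72, -0.71, -0.56, -0.43 and -0.09 in the 8 LGI mice. All 7 HGI mice lay above the LGI median of -0.72, and 6 of 8 LGI mice lay below every HGI mouse, LGI 7 and LGI 8 being the exceptions. The HGI mean was -0.29 ± 0.18 (SD, n = 7), against an LGI mean of -0.63 ± 0.27 (SD, n = 8), a difference of 0.35 ± 0.11 (SE; limma, adjusted p = 0.511).

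Hspa5 (BiP), the Hsp70 chaperone that holds the sensors inactive in the unstressed ER, came next among the ATF6 genes. Its log2 ratio (probe A_51_P395098) ran from -0.46 through a median of -0.33 to 0.087 in the 7 HGI mice, and from -0.77 through -0.49 to -0.15 in LGI mice. All 7 HGI mice lay above the LGI median, and the highest, HGI 4, lay above every LGI mouse. The difference was 0.21 ± 0.10 (SE; limma, adjusted p = 0.623), and 0.15 without HGI 4.

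Of the oxidative folding enzymes, P4hb, a protein disulfide isomerase, differed by 0.17 ± 0.09 (SE), with means of -0.21 ± 0.16 (SD, n = 7) in HGI mice, against -0.39 ± 0.22 (SD, n = 8) in LGI mice. Pdia6, a disulfide isomerase that also acts on the sensors, has 4 probes. Its brightest probe (A_52_P70810) ran from -0.40 through -0.20 to -0.069 in the 7 HGI mice and from -0.57 through -0.34 to -0.11 in LGI mice, a difference of 0.12 ± 0.08 (SE). The 3 other probes differed by 0.084, 0.079 and 0.0005, so the probes of this gene gave values between 0.0005 and 0.12. Pdia4 and Pdia3, of the same enzyme family, differed by 0.018 ± 0.072 and 0.0058 ± 0.066 (SE).

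Herpud1, a membrane protein of ER-associated degradation, differed by 0.13 ± 0.10 (SE), and all 7 HGI mice lay above its LGI median. Herpud1, Hspa5 and Sdf2l1 were the 3 of the 32 with that pattern, which 4.28% of all genes had. Creld2, an ER protein with disulfide isomerase activity, differed by 0.12 ± 0.12, Manf, a neurotrophic factor retained in the ER by Hspa5, by 0.077 ± 0.11, and Hyou1, the nucleotide exchange factor of Hspa5, by 0.031 ± 0.081 (SE). The glycoprotein chaperones Calr and Canx differed by 0.068 ± 0.064 and 0.037 ± 0.075, and Hsp90b1 (GRP94), the Hsp90 of the ER, by 0.052 ± 0.13 (SE). For Hsp90b1 the spot of HGI 7 was marked as an outlier by the scanner software and left out, so n = 6 there.

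**Figure D2:**
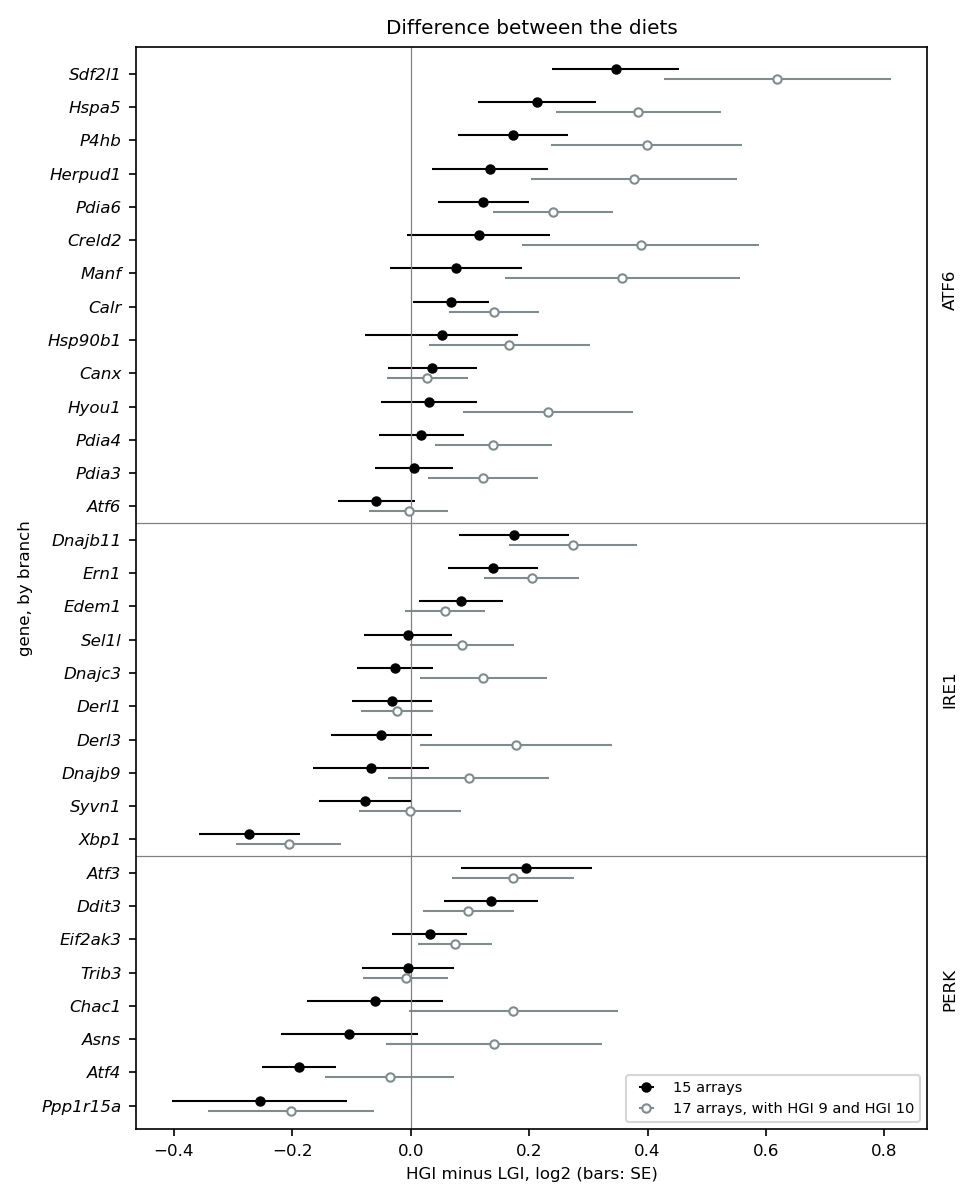
Difference between the diets (HGI minus LGI, log2, horizontal axis) with its standard error for the 32 genes (vertical axis, by branch), over the 15 arrays without HGI 9 and HGI 10 (filled) and over all 17 (open). With 15 arrays Sdf2l1 lies farthest right at 0.35 and Xbp1 farthest left at -0.27, and with 17 arrays 25 of the 32 genes lie right of 0.

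Of the IRE1 branch, the sensor gene and the gene of its splicing target had differences of opposite sign. Ern1, which encodes IRE1, ran from -0.20 through -0.034 to 0.33 in the 7 HGI mice and from -0.24 through -0.12 to -0.060 in LGI mice, a difference of 0.14 ± 0.08 (SE), and 5 of 7 HGI mice lay above all LGI mice. Xbp1 (probe A_52_P185079) was at -0.61, -0.45, -0.42, -0.29, -0.27, -0.07 and -0.03 in the 7 HGI mice, and at -0.24, -0.18, -0.06, -0.05, -0.002, -0.0013, 0.10 and 0.17 in the 8 LGI mice. Of the 7 HGI mice 5 lay below every LGI mouse and all were under the LGI median. The difference was -0.27 ± 0.09 (SE; limma, adjusted p = 0.511). No value here tells the spliced form of Xbp1, which encodes the active factor, from the unspliced one.

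The known targets of spliced XBP1 lay on both sides of 0. Dnajb11 (ERdj3), a cochaperone of Hspa5, differed by 0.17 ± 0.09 (SE), and by 0.10 without LGI 4, whose value of -0.87 was the lowest. Dnajb9 (ERdj4) and Dnajc3 (p58IPK), also cochaperones, differed by -0.067 ± 0.099 and -0.026 ± 0.064. Of the degradation genes, Edem1, which marks misfolded glycoproteins for disposal, differed by 0.085 ± 0.071, the ubiquitin ligase gene Syvn1 (HRD1) by -0.076 ± 0.078 and that of its partner Sel1l by -0.0044 ± 0.074 (SE). The membrane protein genes Derl1 and Derl3 differed by -0.032 ± 0.067 and -0.049 ± 0.085 (SE). The other probes of Derl1 differed by -0.22 to 0.054, and those of Dnajc3 by -0.16 to -0.0043. Derl3 was above background in 6 of the 7 HGI mice and in 6 of 8 LGI mice, and the other 31 genes in all 15.

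Of the PERK branch, Eif2ak3, which encodes PERK, ran from -0.040 through 0.070 to 0.27 in the 7 HGI mice and from -0.097 through 0.057 to 0.21 in LGI mice, a difference of 0.032 ± 0.063 (SE). Atf4 (probe A_52_P139727), the factor whose translation PERK favours, was at -0.48, -0.39, -0.37, -0.37, -0.31, -0.26 and -0.23 in the 7 HGI mice, and at -0.34, -0.25, -0.20, -0.18, -0.12, -0.08, -0.08 and 0.003 in the 8 LGI mice. The LGI median of -0.15 was above all 7 HGI mice, and 6 of 8 LGI mice lay above every HGI mouse. The difference was -0.19 ± 0.06 (SE; limma, adjusted p = 0.524). Atf4 and Xbp1 were the 2 of the 32 genes where all 7 HGI mice were under the LGI median, a pattern of 3.55% of all genes.

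Genes downstream of ATF4 lay on both sides of 0. Ddit3, which encodes the death-linked factor CHOP, ran from -0.27 through -0.11 to 0.25 in the 7 HGI mice and from -0.41 through -0.22 to 0.016 in LGI mice, a difference of 0.14 ± 0.08 (SE). Atf3, a stress-induced repressor, ran from -0.45 through 0.069 to 0.17 in the 7 HGI mice and from -0.68 through -0.20 to 0.097 in LGI mice, a difference of 0.19 ± 0.11 (SE). The difference was -0.0043 ± 0.078 for the pseudokinase gene Trib3, -0.10 ± 0.12 for the asparagine synthetase gene Asns and -0.061 ± 0.11 (SE) for Chac1, which breaks down glutathione. Ppp1r15a (GADD34), the phosphatase subunit that restores translation, differed by -0.25 ± 0.15 (SE). That value rested on HGI 4 at -1.31, and without HGI 4 the difference was -0.090.

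The source of the values and single mice moved many of these differences. In the authors' deposited log2 values, fitted the same way, 19 of the 32 differences moved by over 1.5 times or turned their sign, and 11 turned it. Among those with the larger changes, Sdf2l1 differed by 0.18 there, Xbp1 by -0.15, Atf4 by 0.0012, Atf3 by 0.073, Ddit3 by -0.041, Ppp1r15a by 0.090, Ern1 by 0.071 and Eif2ak3 by -0.20, while Hspa5 differed by 0.19. Leaving out 1 mouse moved 24 of the 32 differences by over 1.5 times or turned them, and turned 6: Hsp90b1, Hyou1, Pdia3, Pdia4, Sel1l and Trib3. Without HGI 6 the difference was 0.085 for Ern1, 0.082 for Ddit3 and 0.086 for Herpud1. Without LGI 4 it was 0.0007 for Manf, and without LGI 5 it was 0.058 for Creld2. For Sdf2l1, Hspa5, Xbp1, Atf4, Atf3, Calr, P4hb and Pdia6 no single mouse moved the difference by that much.

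The sign of the ATF6 genes differed between the parts of the scan order. Among the first 8 arrays scanned, 3 HGI and 4 LGI of the 15, 4 of the 14 ATF6 differences were positive with a median of -0.029. Among the later 9, 4 HGI and 4 LGI of the 15, 13 were positive with a median of 0.26. Over all genes 48.8% were positive among the first and 51.4% among the later ones. The ATF6 genes share these few arrays, so their signs are not separate observations. Hsp90b1 differed by -0.20 among the first and by 0.31 among the later ones, Creld2 by -0.11 and 0.32, and P4hb by -0.0091 and 0.33. Sdf2l1 at 0.23 and 0.45, Hspa5 at 0.13 and 0.30, Xbp1 at -0.39 and -0.17 and Atf4 at -0.29 and -0.098 kept 1 sign in both. They are named for their low unadjusted p in limma over the same arrays, so a kept sign adds no support. Atf3, Ddit3, Dnajb11, Ern1 and Ppp1r15a were among the other genes that kept 1 sign. The difference between the parts was not tested.

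Marker lists of other cell types also differed in level between these mice. The 10 macrophage markers averaged -0.088 to 0.55 in the 7 HGI mice and -0.17 to 0.070 in LGI mice, with 9 of 10 differences positive. The 8 genes of fibroblasts and matrix averaged -0.008 to 0.44 in the 7 HGI mice and -0.31 to 0.12 in LGI mice, with 6 of 8 positive. The 6 mesothelium genes averaged -0.34 to 0.41 in the 7 HGI mice and -0.036 to 0.54 in LGI mice, with 0 of 6 positive and a median difference of -0.21, and the 8 adipocyte markers had 1 positive difference and a median of -0.14. The 9 tested genes of B and plasma cells, a cell type rich in ER, averaged -0.17 to 0.17 in the 7 HGI mice and -0.19 to 0.046 in LGI mice. None of these genes passed the test, and their part in the differences of the ER genes was not tested.

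With the diet means taken out, the ATF6 genes had the highest median correlation with each other of the branches. The median correlation of deviations from the diet means over the 15 mice was 0.302 between ATF6 genes, 0.071 between IRE1 genes and 0.102 between PERK genes, beside -0.005 over a sample of all genes. Across branches it was 0.108 for ATF6 with IRE1 genes, 0.04 for ATF6 with PERK genes and -0.026 for IRE1 with PERK genes. These pairs share their arrays and are given as a description. The deviations of Hspa5 correlated best with those of Pdia6 (0.80), Sdf2l1 (0.71) and the PERK target Atf3 (0.70), and were lowest with Asns (-0.62) and Trib3 (-0.59), both targets of ATF4. LGI 4 was the lowest of the 15 for 7 genes, while HGI 6 and LGI 6 were each the highest for 6.

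With all 17 arrays HGI 9 and HGI 10 count in HGI. The difference was positive for 25 of the 32 genes, beside 52.6% of all genes, with a median of 0.14 for all 32, 0.24 for the ATF6 genes, 0.092 for the IRE1 genes and 0.086 for the PERK genes. Sdf2l1 differed by 0.62 ± 0.19, P4hb by 0.40 ± 0.16 and Hspa5 by 0.38 ± 0.14 (SE). None of the 32 and none of all genes (0%) passed the adjusted test in limma. Unadjusted p under 0.05 was reached by 7 higher genes (Sdf2l1, Hspa5, P4hb, Herpud1, Pdia6, Dnajb11 and Ern1), beside 3.96% of all genes, and by 1 lower gene, Xbp1, beside 3.78%.

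HGI 9 and HGI 10 had high values for most ER chaperones and for part of the PERK branch. Both lay above all 15 other mice for 20 of the 32 genes, beside 11.1% of all genes (11 genes, beside 7.78%, with median scaling in place of loess), and below all 15 for 0, beside 5.32%. Both lay above the median of the 15 for 27 genes, beside 35.4% of all genes, and below it for Ddit3 and, by its brightest probe, Edem1, beside 38.1%. These arrays were singled out by their values, so their levels are described with no test. The median distance from the median of the 15 was 0.62 in HGI 9 and 0.44 in HGI 10 over the 32 genes, where it was -0.0055 and -0.010 over all genes. The mean of both arrays gave a median of 0.54 over the 32 genes, 0.25 with median scaling in place of loess and 0.35 in the authors' deposited log2 values. By branch it was 0.82 and 0.62 for the ATF6 genes, 0.41 and 0.35 for the IRE1 genes and 0.14 and 0.14 for the PERK genes.

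**Figure D3:**
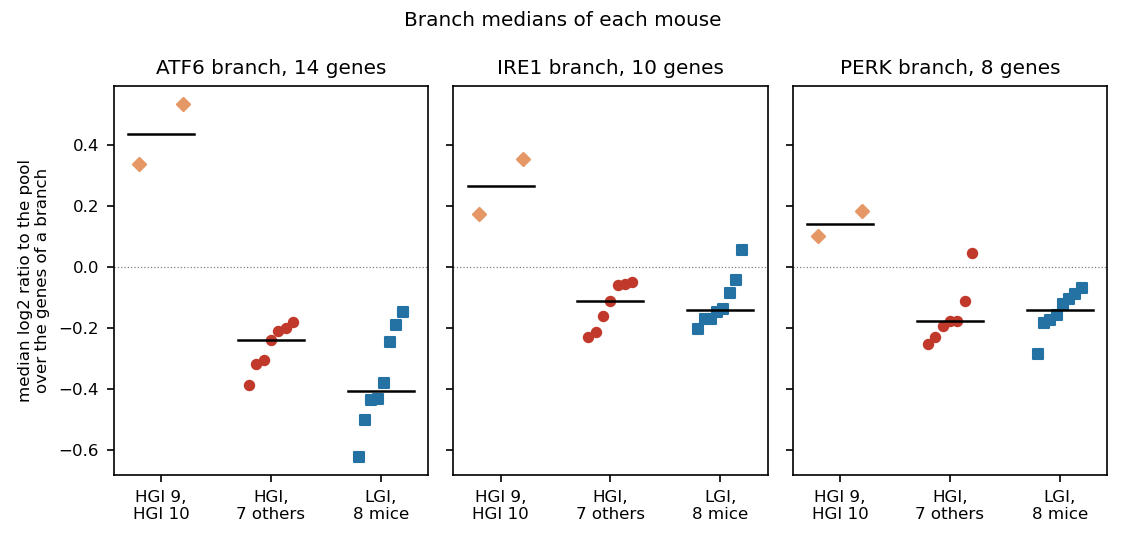
Median log2 ratio to the pool over the genes of a branch (vertical axis) in each mouse, for ATF6, IRE1 and PERK, with HGI 9 and HGI 10, the 7 other HGI mice and the 8 LGI mice from left to right and a black line at the median of each set. In the ATF6 panel HGI 9 and HGI 10 lie at 0.53 and 0.34, and all other mice between -0.62 and -0.15.

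Of the ATF6 genes, 11 of 14 were above all 15 in both arrays. Sdf2l1 stood at 0.95 in HGI 9 and 0.93 in HGI 10, against -0.90 to -0.028 in the 15, which is 1.39 and 1.37 above their median. Manf stood 1.36 and 1.18 above it, Herpud1 1.35 and 1.05, Creld2 1.35 and 1.14, P4hb 1.12 and 1.05, Hspa5 1.00 and 0.71 and Hyou1 0.96 and 0.78. Smaller distances were found for Pdia3 (0.62 and 0.53), Pdia4 (0.55 and 0.52) and Calr (0.48 and 0.18). Hspa5 itself was at 0.63 in HGI 9 and 0.35 in HGI 10, against -0.77 to 0.087 in the 15. The 3 ATF6 genes outside this count were Atf6, at 0.25 and 0.33 against up to 0.25 in the 15, Hsp90b1, at 0.29 and -0.034 against up to 0.0003, and Canx, at -0.098 and -0.19 against -0.37 to 0.20.

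Pdia6 again depended on its probe. The brightest probe stood 0.68 above the median of the 15 in HGI 9 and 0.44 in HGI 10. Of its other probes, 1 stood 0.27 and 0.18 above, 1 stood 0.22 and 0.22 above, and the dimmest stood at -0.088 and -0.072.

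Of the IRE1 genes, 5 of 10 were above all 15 in both arrays: Derl3 (1.30 and 0.78 above the median of the 15), Dnajb9 (0.88 and 0.62), Dnajb11 (0.74 and 0.35), Dnajc3 (0.71 and 0.56) and Sel1l (0.33 and 0.45). The other probe of Sel1l stood at -0.30 and 0.36 from that median. The other probes of Dnajc3 stood from 0.22 and 0.14 to 1.21 and 1.14 above it. Xbp1 was at 0.076 in HGI 9 and -0.085 in HGI 10, inside the range of the 15, which was -0.61 to 0.17. Ern1 stood at 0.34 and 0.27, against up to 0.33 in the 15. Syvn1 stood at 0.17 and -0.067, against up to -0.027 in the 15. Derl1 lay at 0.044 and 0.079 from the median of the 15. Edem1 depended on its probe: the brightest lay at -0.11 and -0.034 from that median, and the 2 others at 0.39 and 0.39 and at 0.41 and 0.53.

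The PERK genes divided between high values and values inside the range of the 15. Asns stood 1.098 and 0.93 above the median of the 15 in HGI 9 and HGI 10, Chac1 1.05 and 1.06, Atf4 0.69 and 0.49 and Eif2ak3 0.23 and 0.22, and both arrays were above all 15 for these 4 genes. Atf4 was at 0.44 and 0.25 there, against -0.48 to 0.0033 in the 15. Ddit3 stood at -0.036 and -0.11 from the median of the 15, Atf3 at 0.038 and 0.0086, Trib3 at -0.16 and 0.056 and Ppp1r15a at 0.0089 and 0.068, all inside the range of the 15. The other, dimmer probe of Trib3 stood at 0.38 and 0.14 from its median.

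**Figure D4:**
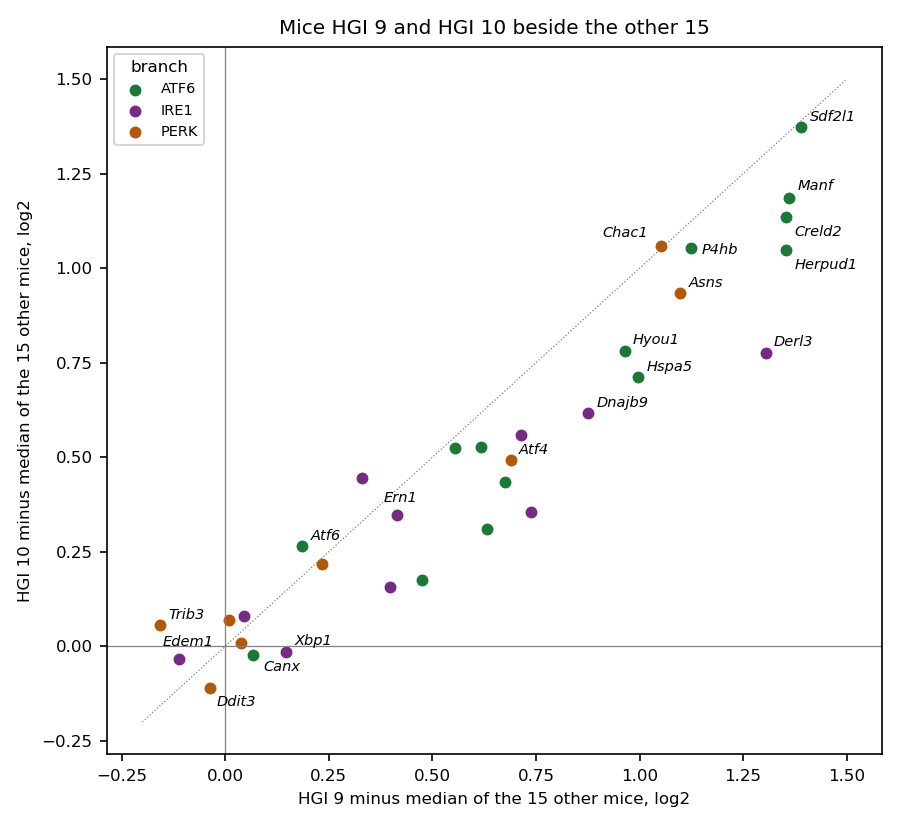
Distance from the median of the 15 other mice (log2) in HGI 9 (horizontal axis) and HGI 10 (vertical axis) for the 32 genes, coloured by branch, with a dotted line where both are equal. Sdf2l1, Manf, Creld2 and Herpud1 lie at the upper right, while Ddit3, Trib3, Edem1, Canx and Xbp1 lie near 0 in both.

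Set beside the promoter letters, 8 of the 11 genes with an ERSE or ERSE-II were among the 20 above all 15 mice. So were 10 of the 17 genes with neither, where 11.1% of all genes lay above all 15. Of the 4 genes without a window, Hyou1 and Manf were among the 20. The count of 20 was 11 with median scaling and 15 in the authors' deposited log2 values. The split by letters was not repeated there, and no relation of letters to level was tested. The 3 genes with an ERSE or ERSE-II outside the 20 are Hsp90b1, Canx and Syvn1. Sdf2l1, P4hb, Pdia4 and Chac1 were among the 10 with neither. Of the 5 genes with a CARE, Herpud1, Asns and Chac1 were among the 20 and Atf3 and Trib3 were not.

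The arrays with high chaperone values, HGI 9 and HGI 10, were also those with high averages of the seminal vesicle and smooth muscle lists. Over the 15 other mice the seminal vesicle list averaged -4.28 to -3.98 in HGI and -4.30 to -3.93 in LGI. Its part in the diet differences and in the values of HGI 9 and HGI 10 was not tested. The macrophage list averaged -0.23 and -0.12 there, the B and plasma cell list -0.061 and -0.058, and the fibroblast and matrix list -0.44 and -0.37, against the ranges given above. The endothelium list averaged -0.35 and -0.25, against 0.017 to 0.24 in the 15. Of its 6 genes 4 lay below all 15 mice in both arrays, beside 5.32% of all genes. The reference pool holds the RNA of these arrays too, and over the 32 genes the median log2 ratio was 0.36 in HGI 9 and 0.26 in HGI 10, against -0.35 to -0.15 in the 15.

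Other genes of the pathway gave 0 calls between the diets in limma over the 15 arrays in each of 5 lists, as over all genes (0%). Of 17 other sensors and regulators 6 differences were positive. Ppp1r15b, the constitutive partner of the phosphatase that Ppp1r15a joins, differed by -0.14 ± 0.06 (SE), and Eif2s1, the translation factor subunit that PERK phosphorylates, by 0.13 ± 0.07 (SE). Of 22 other ATF4 targets 17 were positive, where Vldlr, a lipoprotein receptor, differed by 0.44 ± 0.18 and Sesn2, a nutrient-stress regulator, by 0.24 ± 0.11 (SE).

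Of 22 other ER folding genes 15 were positive. Ppib, a prolyl isomerase, differed by 0.26 ± 0.09 (SE) with a mean of -0.26 ± 0.21 (SD, n = 7) in HGI mice, against -0.52 ± 0.13 (SD, n = 8) in LGI mice, and Serpinh1, the collagen chaperone HSP47, by 0.33 ± 0.12 (SE). Of 29 genes of the translocon, signal peptidase and glycosylation 21 were positive, with Ostc at 0.18 ± 0.08 and Dad1 at 0.13 ± 0.07 (SE), both subunits of the oligosaccharyl transferase. Of 19 other degradation genes 11 were positive, with Derl2 at 0.20 ± 0.07 and Vcp, the ATPase that pulls proteins out of the ER, at 0.13 ± 0.07 (SE). The medians of the lists lay between -0.033 and 0.068.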

How the data were processed

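RNA was measured on 2-colour Agilent arrays, 1 per mouse. The scanner files hold spot intensities of both dyes, written by Agilent Feature Extraction, version 9.1.3.1 per the file headers and 9.5.1.1 per the submitters' processing notes. A table of log2 values that the authors deposited covers 19836 probes. Its normalization, centring and filter are not given in the labels or headers, and it was used as an alternative. Background was corrected by normexp (offset 50) and log2 ratios of Cy5 to Cy3 by loess within each array in limma (3.58.1, R 4.3.3). Files were read with the R package data.table (version 1.17.8) and plots drawn with matplotlib (3.10.9, Python 3.11.15). Of 43790 spots, 2256 controls were left out, as were 4 to 43 spots per array with outlier flags, and spots of a probe were averaged to 41174 probes. Saturated spots were kept. A gene is represented by its brightest probe among those well above background on at least 8 arrays, 18134 genes in all. Probes were named through a RefSeq table (GRCm38.p6): 23374 by accession, 6733 by symbol, 2919 by an older symbol, and 8148 kept the file's name.

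The diets were compared with lmFit and eBayes with no covariate over 7 HGI and 8 LGI arrays, and p was adjusted by Benjamini-Hochberg over all genes at a threshold of 0.05. HGI 9 and HGI 10 were left out of that fit and described beside it, and all 17 arrays were an alternative. The test was checked on simulated data with 200 changed genes. Members, branches, gene lists, this choice of arrays and the alternatives were chosen with earlier results of these data known. Named are all 32 members, with values by array or by range for Atf6, Ern1, Xbp1, Eif2ak3, Atf4, Ddit3, Hspa5, Sdf2l1, Pdia6 and members with an unadjusted p under 0.05, and of each other pathway list the 2 genes with the smallest p. The labels do not say whether the same replicate number in both diets pairs mice, and no pairing was used. Deviations of same-numbered mice correlated at -0.47 to 0.30 over 6 pairs. Differently numbered mice were not compared, so these values cannot settle whether mice were paired.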

Additional observations from a re-analysis of the deposited data

Results flagged for a closer look

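In 4 of the 64 sets formed by the 32 genes and the 2 diets (6.25%), 1 mouse lay far from the others of its diet, measured by its gap to the nearest of them against the whole range. Chance alone gives such a gap in about 1 set in 20. All 4 lay at the low end and each was a single spot of 1 array. Ppp1r15a, the phosphatase subunit that restores translation, was at -1.31 in HGI 4, where the next HGI mouse was at -0.38, and its difference between the diets of -0.25 was -0.090 without that mouse. Dnajb11, the cochaperone of Hspa5, was at -0.87 in LGI 4, the next LGI mouse at -0.40, and its difference of 0.17 was 0.10 without LGI 4. Pdia4, a disulfide isomerase, was at -0.49 in HGI 2, the next at -0.22. Hyou1, the exchange factor of Hspa5, was at -0.73 in LGI 5, the next at -0.43.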

How the results depend on the processing

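No member passed the adjusted test under any of the 32 alternatives, 15 of which left out 1 array. Sdf2l1, Hspa5, Xbp1, Dnajb11, Edem1, Ern1 and Atf3 kept the sign of their difference under all 32, and the other 25 members turned it at least once. The adjusted p in limma ran from 0.11 to 1 for Sdf2l1, from 0.156 to 1 for Xbp1, from 0.216 to 1 for Atf4 and from 0.331 to 1 for Hspa5. With 15 arrays 0 genes passed, with array weights 1, and with 1 array left out 0 to 11 (2 without LGI 7, 11 without HGI 7). Leaving out 1 array gave 16 to 21 positive differences and medians of 0.0041 to 0.050 over the members, 0.043 to 0.11 for ATF6, -0.057 to -0.0074 for IRE1 and -0.072 to -0.011 for PERK genes. With all 17 arrays the medians were 0.14, 0.24, 0.092 and 0.086. With median centring in place of loess they were 0.13 over the members, 0.21 for ATF6 and 0.076 for IRE1 genes, 27 of the 32 differences were positive, and 62.7% of all genes had a positive difference with a median of 0.035. Among the first 8 arrays scanned 11 members were positive, beside 48.8% of all genes, and among the later 9 the ATF6 median was 0.26. The cause of these shifts was not tested. Position in the scan order as a covariate, added after seeing the data, gave an ATF6 median of 0.074.

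The median distance of the members in HGI 9 and HGI 10 from the 15 other arrays, 0.54, was 0.65 with the scanner software's processed signals, 0.25 with median centring, 0.47 with Cy5 intensities alone, 0.35 with the authors' deposited log2 values and 0.46 with the mean of a gene's probes. Over all genes that distance was -0.063 with median centring. The count of members above all 15, 20, was 11 with median centring, beside 7.78% of all genes, and this count was added after seeing the data. Of the 12 members with more than 1 probe, 5 (Calr, Derl1, Edem1, Hsp90b1 and Trib3) had probes with differences of both signs.

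The labels do not say whether equal replicate numbers pair mice. With the number as a replicate block over the arrays with shared numbers, 0 genes passed, as without the block, 19 members were positive, and the medians were 0.044 over the members, 0.084 for ATF6, -0.030 for IRE1 and -0.045 for PERK genes.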

Other observations

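Outside the 32 genes, the machinery that brings proteins into the ER had high values in HGI 9 and HGI 10. Of 29 genes of the translocon, signal peptidase and glycosylation, 24 lay above all 15 other mice in both, beside 11.1% of all genes, with a median distance of 0.64 and 0.54 from the median of the 15. Sec11c, a catalytic subunit of the signal peptidase, stood 2.09 and 2.00 above it and was singled out after its values were seen. Of 22 other ER folding genes 10 lay above all 15 mice in both arrays, of 19 other degradation genes 5, and of 17 other sensors and regulators 1, Ppp1r15b at 0.42 and 0.43.

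The other ATF4 targets did not move as 1 set. In HGI 9 and HGI 10, 10 of 22 lay above all 15 mice, beside 11.1% of all genes. They include Psph, Shmt2 and Mthfd2 of serine and folate metabolism and the transfer RNA synthetase genes Cars1, Wars1 and Nars1. The amino acid transporter genes Slc3a2 and Slc7a5 were also among the 10. Vldlr stood at -0.30 and -0.59 from the median of the 15 and Sesn2 at -0.42 and -0.55, where both had positive differences between the 7 HGI and 8 LGI mice. These values are a description of 2 arrays with no test.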
